A study of Mus musculus with 8 samples.

Results

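Bone-marrow derived macrophages of C57BL/6 mice, cells grown from marrow precursors, were kept in 96-well plates for 24 h without a stimulus (2 libraries), with the cytokine IL4 (3 libraries), or with LPS, a lipopolysaccharide of bacterial walls, and interferon gamma at once (written LPS plus IFNg, 3 libraries). The 6 stimulated libraries were taken as 1 side and the 2 unstimulated libraries as the other, which used all 8 libraries of the series. Gene expression was measured by sequencing the 3' ends of polyadenylated RNA. No mutation or transgene is named for any group, and separate mice or cultures are not stated for the replicates, so p-values measure the spread between these libraries, which may be technical. The genes described are those whose 6 stimulated values all lay above, or all lay below, both unstimulated values (no overlap). These were 1327 of 13615 genes tested: 438 lay above (3.22% of genes tested) and 889 below (6.53%).

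IL4 signals through STAT6 and is the usual stimulus for alternative activation, in which macrophages take up roles in tissue repair and defence against parasites. LPS signals through Toll-like receptor 4 and NF-kB, and LPS and interferon gamma together give classical activation, with secretion of inflammatory mediators and killing of microbes. These kinds of activation are commonly described as opposed, yet IL4 and interferon gamma both signal through JAK kinases and meet the same feedback inhibitors. The rule takes genes that lay on the same side of the controls with either stimulus. It does not test each stimulus alone, and some of these genes moved mainly with 1 of them.

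The no-overlap rule alone sets no size and is no test, and genes without a change can meet it. At its edge stood Ikbkg, whose lowest stimulated value was 6.149 against a highest unstimulated value of 6.1488, and Nol8 fell just outside with 7.1939 against 7.1944. On the lower side Pacsin2 was just inside, with a highest stimulated value of 6.7925 against a lowest unstimulated value of 6.7936, and Nxf1 just outside, with 8.9155 against 8.9151. A difference was therefore also tested with limma, a linear model fitted to all genes and groups, as the mean of the IL4 and LPS plus IFNg means minus the unstimulated mean. It called 123 genes higher (0.903%) and 164 lower (1.2%) at an adjusted p of 0.05. Of these, 79 were called higher with no overlap (0.58%) and 139 lower with no overlap (1.02%). The other 44 higher and 25 lower calls had overlapping libraries: their pooled mean moved, but not in every stimulated library. All values below are the authors' quantile-normalised log2 expression values, and a difference is a difference of log2 values.

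Socs1 and Cish, feedback inhibitors of cytokine signalling, rose and were higher than both controls in all 6 stimulated libraries. Socs1, which binds JAK kinases and shuts off IL4 and interferon signals alike, stood at 3.05 and 2.14 without stimulus. It was at 8.35, 8.34 and 8.61 with IL4 and at 10.91, 10.80 and 11.13 with LPS plus IFNg. The lowest stimulated library thus lay over 5 log2 units above the higher control, and the pooled difference was 7.09 (SE 0.27, adjusted p = 0.000107). The stimuli also differed from each other: Socs1 was 2.51 higher with LPS plus IFNg than with IL4 (SE 0.27, adjusted p = 0.00141, from the direct contrast). The difference in this contrast uses no control library, but its SE and p rest on the spread within all groups, controls included. Cish, an inhibitor of STAT5 signalling, had the opposite order, with 0 and 2.43 without stimulus, 9.22, 9.49 and 8.13 with IL4 and 3.98, 5.08 and 4.67 with LPS plus IFNg. Its pooled difference was 5.54 (SE 0.75, adjusted p = 0.0175), and it was lower by 4.37 with LPS plus IFNg than with IL4 (adjusted p = 0.00945). Without LPS plus IFNg replicate 2 the adjusted p of Cish was 0.0502.

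Of the 20 JAK-STAT feedback inhibitors tested, these 2 rose, none fell and 18 did not pass. No overlap was found for 3 above (15.0% beside 3.22% of all genes) and 1 below (5.0% beside 6.53%). The median difference of the 20 was 0.31 beside -0.04 over all genes tested. Sh2b3, an adaptor that restrains JAK2, was the member below both controls, with a difference of -0.81 that did not pass (adjusted p = 0.615). Among the 10 kinases and transcription factors of the pathway only Jak2 passed. Jak2, the kinase of the interferon gamma and GM-CSF receptors, was at 6.05 and 5.26 without stimulus, at 8.402, 7.60 and 7.39 with IL4 and at 8.79, 8.75 and 8.84 with LPS plus IFNg. Its difference was 2.64 (SE 0.33, adjusted p = 0.013, but 0.0792 without unstimulated replicate 2). Pim1, a survival kinase induced by STAT factors, went from 9.94 and 10.16 to between 10.68 and 11.98 (difference 1.38, adjusted p = 0.0141, and 0.0599 without unstimulated replicate 1). Stat5b was listed lower in all 6 libraries by a difference of -0.58 that did not pass (adjusted p = 0.599). Of the 38 cytokine receptors and decoys, 2 rose and none fell, with 3 above (7.89%) and 5 below (13.2%) both controls. The risers were Csf2rb, the shared beta chain of the GM-CSF, IL3 and IL5 receptors (1.30, adjusted p = 0.0293), and Il1rn, the IL1 receptor antagonist (2.50, adjusted p = 0.0108). The call of Csf2rb ended without unstimulated replicate 2, IL4 replicate 1 or 3, or any LPS plus IFNg library (adjusted p up to 0.101). Il4ra, the receptor chain for IL4, overlapped between the sides at a difference of 1.46 (adjusted p = 0.318).

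Slc7a2 and Arg1, genes of arginine handling, rose. Slc7a2 encodes CAT2, the cationic amino acid transporter that supplies arginine both to arginase and to nitric oxide synthase. It stood at 5.99 and 6.33 without stimulus, at 11.30, 11.86 and 11.58 with IL4, and at 11.64, 11.68 and 11.66 with LPS plus IFNg. Stimulated libraries filled a band of under 1 log2 unit, far above both controls, and the difference was 5.46 (SE 0.19, adjusted p = 0.000107). Between the stimuli Slc7a2 differed by 0.08 (95% interval -0.36 to 0.52, adjusted p = 0.86). Arg1, arginase, which splits arginine into ornithine and urea and is the classic gene of alternative activation, was at 2.31 and 4.19 without stimulus and at 13.64, 13.41 and 13.69 with IL4. With LPS plus IFNg it was at 7.80, 7.57 and 7.57, so it was above both controls there as well (pooled difference 7.36, SE 0.43, adjusted p = 0.0017). The stimuli differed strongly for Arg1, which was lower by 5.93 with LPS plus IFNg (adjusted p = 0.000305). Of the 19 arginine and polyamine genes tested, 3 rose and 1 fell. Both controls were cleared above by 3 (15.8% beside 3.22% of all genes) and below by 2 (10.5% beside 6.53%). The third riser, Nos2, the inducible nitric oxide synthase, was at 0 in both controls and all 3 IL4 libraries and between 10.06 and 10.43 with LPS plus IFNg. The faller was Oaz1, the antizyme that inhibits polyamine synthesis, at -0.94 (adjusted p = 0.0399, reaching 0.138 when libraries were left out, and lost without any 1 of the 8). Ass1, which rebuilds arginine from citrulline, had overlapping libraries and did not pass (4.91, adjusted p = 0.0972).

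**Figure D1:**
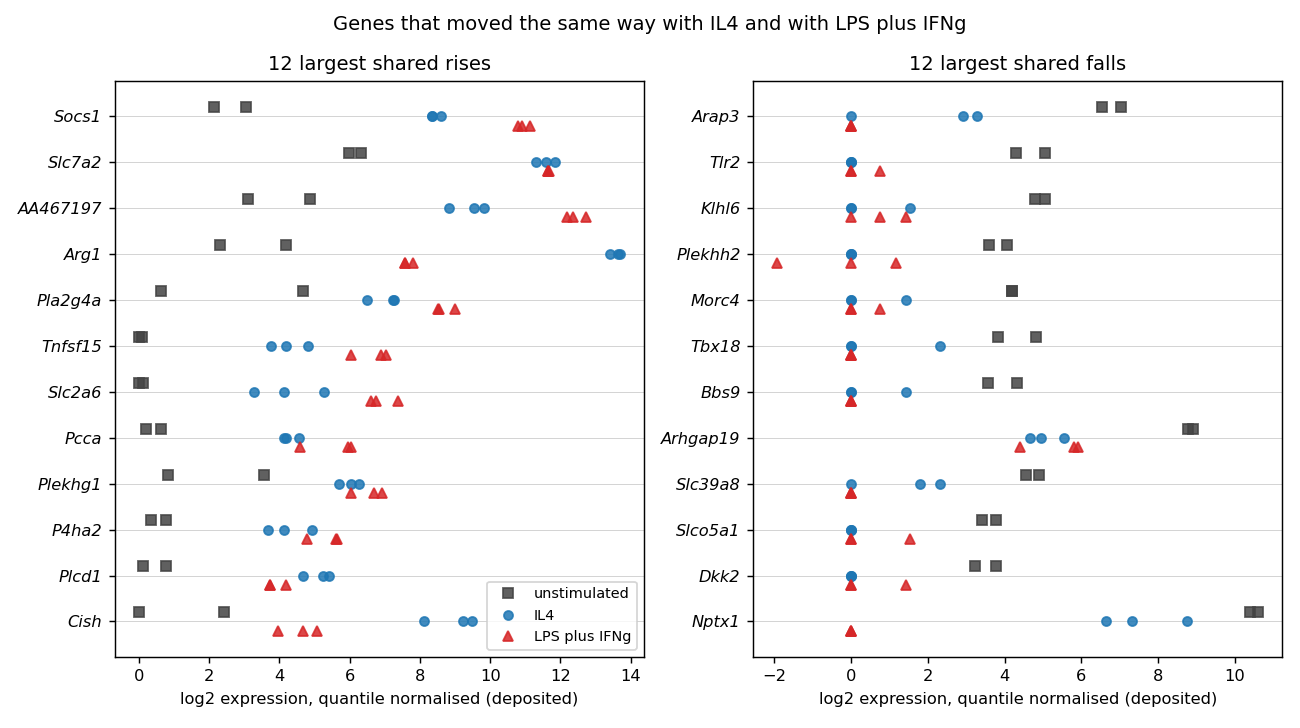
Deposited log2 expression in each of the 8 libraries for the 12 genes with the largest rises and the 12 with the largest falls that passed limma with no overlap, ranked by the smaller of the IL4 and LPS plus IFNg differences; genes at 0 in all libraries of a side are left out. Squares are unstimulated, circles IL4 and triangles LPS plus IFNg libraries. Socs1 and Slc7a2 stand apart from both controls in every stimulated library, while several of the fallers lie at 0 in most stimulated libraries.

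Beyond the genes above, the plot of the largest shared changes holds 8 other risers. AA467197, a small mitochondrial protein, went from 4.87 and 3.12 to 9.55, 9.82 and 8.82 with IL4 and to 12.73, 12.18 and 12.37 with LPS plus IFNg (difference 6.91, SE 0.47, adjusted p = 0.00238). Tnfsf15, a TNF family cytokine, was at 0.10 and 0 without stimulus and between 3.76 and 7.03 when stimulated (5.41, adjusted p = 0.0118). Both kept their calls whichever library was left out. Pla2g4a, the cytosolic phospholipase that frees arachidonic acid, had controls far apart at 4.66 and 0.62, below stimulated values of 6.50 to 9.001 (5.20, adjusted p = 0.0387, lost without any 1 stimulated library, up to 0.101). The others of the 12 besides Socs1, Slc7a2, Arg1 and Cish were Slc2a6, a hexose transporter of lysosomes (5.50, adjusted p = 0.0157), Pcca, a subunit of propionyl-CoA carboxylase (4.49, adjusted p = 0.0313), Plekhg1 (4.07, adjusted p = 0.0426), P4ha2, a collagen prolyl hydroxylase (4.23, adjusted p = 0.0362), and Plcd1, a phospholipase C (4.04, adjusted p = 0.0363). Each of these was under 1 in at least 1 control and each lost its call when some libraries were left out, with adjusted p up to 0.107. For genes listed this low in the controls the size of the difference depends on how low counts were logged.

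Ccl2 and Ccl7, chemokines that draw monocytes, rose. Ccl2, the main ligand of Ccr2 on monocytes, was at 7.38 and 8.12 without stimulus, at 10.44, 11.60 and 11.04 with IL4, and at 11.60, 10.97 and 11.58 with LPS plus IFNg (difference 3.46, SE 0.36, adjusted p = 0.00849). Ccl7, a related ligand, was at 5.87 and 6.93, then at 10.66, 11.36 and 10.83 with IL4 and 9.66, 9.60 and 9.93 with LPS plus IFNg (3.94, SE 0.31, adjusted p = 0.00625). Neither gene's libraries overlapped, and both kept their calls whichever library was left out. For Ccl2 the stimuli differed by 0.36 (95% interval -0.48 to 1.19, adjusted p = 0.567), and Ccl7 was lower by 1.22 with LPS plus IFNg than with IL4 (adjusted p = 0.0442). Of the 23 chemokines tested 5 rose and none fell, with 3 above both controls and a median difference of 2.30. The other 3 risers, Ccl5, Cxcl9 and Cxcl11, had overlapping libraries. Ccl8, another monocyte attractant, lay above both controls but did not pass (4.91, adjusted p = 0.0724).

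Among 25 immediate early and AP-1 genes 2 rose and none fell. Of these 25, 5 (20.0% beside 3.22% of all genes) lay above and 1 (4.0% beside 6.53%) below both controls. Klf4, a transcription factor of monocyte differentiation that cooperates with STAT6, was at 7.55 and 7.24 without stimulus. It reached 10.37, 9.51 and 10.74 with IL4 and 10.35, 10.56 and 10.04 with LPS plus IFNg. The 2 stimulated groups interleaved, with a difference between them of 0.12 (95% interval -0.65 to 0.88, adjusted p = 0.89), and the pooled difference was 2.87 (SE 0.33, adjusted p = 0.0109, but 0.0823 without unstimulated replicate 2). Ier3, an early gene that limits cell death, rose by 2.61 (adjusted p = 0.0297). The call of Ier3 was lost without either control, IL4 replicate 2 or 3, or LPS plus IFNg replicate 1 or 3, where the adjusted p reached 0.137. Fosl1, an AP-1 subunit, overlapped and did not pass (2.93, adjusted p = 0.408). Of 19 NF-kB subunits and inhibitors none passed, and 2 (10.5%) lay above both controls, among them Rel (1.17, adjusted p = 0.383).

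A few genes of antigen presentation and costimulation changed. Of 9 MHC class II genes tested 2 rose, 3 (33.3% beside 3.22% of all genes) lay above both controls and none below. The median difference was 1.87. H2-Eb1, a class II beta chain gene, was at 5.45 and 4.82 without stimulus, at 7.43, 7.93 and 6.82 with IL4 and at 7.89, 7.09 and 6.91 with LPS plus IFNg (difference 2.21, SE 0.41, adjusted p = 0.046). H2-DMa, which loads peptides, was at 3.41 and 3.35, then between 5.48 and 6.57 (2.63, adjusted p = 0.0241). Both are small margins over the threshold: the call of H2-Eb1 was lost without any 1 of the 8 libraries (adjusted p up to 0.255) and that of H2-DMa without IL4 replicate 1 or 3 or any LPS plus IFNg library (up to 0.0698). H2-Ab1, the other classical beta chain, lay above both controls without passing (1.87, adjusted p = 0.103). Ciita, the master activator of these genes, overlapped (2.29, adjusted p = 0.472).

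Of 23 costimulatory molecules and ligands 4 rose and 2 fell, with 4 above and 3 below both controls. The risers were Cd40, Pdcd1lg2, Slamf8 and Slamf9. Cd40, through which T cells stimulate macrophages, was at 2.22 and 2.94 without stimulus and at 3.90, 3.97 and 4.56 with IL4. It was at 8.70, 8.21 and 8.67 with LPS plus IFNg, so the IL4 libraries were only a little above the controls. Its pooled difference was 3.75 (SE 0.44, adjusted p = 0.0116), and it was 4.38 higher with LPS plus IFNg than with IL4 (adjusted p = 0.00118). Slamf9, a SLAM family receptor, rose more evenly, from 6.42 and 6.74 to between 7.95 and 8.74 (1.76, adjusted p = 0.00797). The fallers were both inhibitory: 4632428N05Rik, which encodes the checkpoint ligand VISTA, went from 8.56 and 8.57 to between 6.50 and 7.10 (-1.81, SE 0.21, adjusted p = 0.0111). Sirpa, the receptor of the CD47 signal that restrains phagocytosis, was at 13.97 in both controls and between 12.11 and 13.07 when stimulated (-1.49, adjusted p = 0.0206, and up to 0.0795 without either control or LPS plus IFNg replicate 2). Slamf8 rose by 2.82 (adjusted p = 0.0231), a call that ended without unstimulated replicate 1 or any LPS plus IFNg library (up to 0.0912).

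A few genes were listed at 0 in both controls and above 0 in all 6 stimulated libraries. There were 5 of them (Ch25h, Pdcd1lg2, Nfil3, Syt7 and Mt3), of which the first 2 passed. Ch25h makes 25-hydroxycholesterol, an oxysterol that limits viral entry and sterol synthesis, and was at 7.58, 7.14 and 9.02 with IL4 and 4.92, 7.21 and 6.13 with LPS plus IFNg (adjusted p = 0.0094, but 0.0557 without unstimulated replicate 2). Pdcd1lg2, which encodes the PD-1 ligand PD-L2, was at 6.75, 7.12 and 3.89 with IL4 and 4.81, 5.94 and 5.27 with LPS plus IFNg (adjusted p = 0.0372, lost without any library but IL4 replicate 3, up to 0.174). No fold is given against a side listed at 0.

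A few genes of glucose use and the hypoxia pathway rose. Of 26 glycolysis genes 2 rose and none fell, while 8 (30.8% beside 3.22% of all genes) lay above both controls and 1 below, with a median of 0.60. Hk2, the inducible hexokinase that commits glucose to glycolysis, was at 7.96 and 8.08 without stimulus, at 9.52, 9.65 and 9.52 with IL4 and at 9.02, 9.78 and 9.56 with LPS plus IFNg. The IL4 range lay within that of LPS plus IFNg, and the pooled difference was 1.49 (SE 0.22, adjusted p = 0.0229), with a difference between stimuli of -0.11 (95% interval -0.61 to 0.40, adjusted p = 0.823). The call of Hk2 ended without either control or LPS plus IFNg replicate 3 (up to 0.104). The other riser was Slc2a6, given above. Ldha, lactate dehydrogenase, was at 9.12 and 9.14 without stimulus and at 9.73 to 10.09 in all 6 stimulated libraries, and did not pass (0.69, adjusted p = 0.0755). Pgk1, a later enzyme, lay above both controls without passing (1.0, adjusted p = 0.0609), and was 1.23 higher with LPS plus IFNg than with IL4 (adjusted p = 0.00789). The glucose transporter gene Slc2a1 also lay above both controls without passing (1.24, adjusted p = 0.214).

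Of 21 HIF pathway genes, several of them also glycolysis genes, 2 rose and none fell, with a median of 0.89. Above both controls lay 7 (33.3% beside 3.22% of all genes) and below them 1 (4.76% beside 6.53%). Hif1a, the oxygen-regulated transcription factor of the pathway, was at 7.96 and 8.37 without stimulus and at 8.61, 8.84 and 8.81 with IL4. It was at 9.95, 10.22 and 9.71 with LPS plus IFNg (1.19, SE 0.20, adjusted p = 0.0359, up to 0.141 and lost without any 1 of the 8). It was 1.20 higher with LPS plus IFNg than with IL4 (adjusted p = 0.0084). Car9, a carbonic anhydrase, overlapped (2.43, adjusted p = 0.366). Of 10 genes of UDP-GlcNAc synthesis, the branch of glucose metabolism that feeds glycosylation, 1 rose and 1 fell. Both controls were cleared above by 2 (20.0% beside 3.22% of all genes) and below by 2 (20.0% beside 6.53%). Gfpt1, its first and rate-limiting enzyme, went from 7.16 and 6.99 to 8.33, 8.52 and 8.65 with IL4 and 9.88, 9.32 and 9.02 with LPS plus IFNg (1.88, SE 0.25, adjusted p = 0.0154, up to 0.0957 without either control). Gnpda1, which runs the opposite reaction, fell from 9.80 and 9.76 to 8.72, 8.49 and 8.71 with IL4 and 7.64, 7.52 and 7.41 with LPS plus IFNg (-1.70, SE 0.16, adjusted p = 0.00736), and kept its call whichever library was left out. Pgm3, a later step, lay above both controls without passing (2.49, adjusted p = 0.132).

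Genes known for 1 kind of activation were set beside these as a contrast. Of 32 alternative activation genes 9 rose and 1 fell. Both controls were cleared above by 7 (21.9% beside 3.22% of all genes) and below by 1 (3.12% beside 6.53%). Besides Arg1, Slc7a2, Cish, Klf4 and Pdcd1lg2 the risers with no overlap were Tgm2, a transglutaminase, and Ppargc1b, a coactivator of oxidative metabolism. Tgm2 was at 7.40 and 7.33 without stimulus, at 8.396, 8.86 and 7.98 with IL4 and at 11.10, 10.42 and 10.89 with LPS plus IFNg, so this marker stood higher with LPS plus IFNg, by 2.39 (adjusted p = 0.00187). Its pooled difference was 2.24 (adjusted p = 0.0118, up to 0.0853 without either control), and that of Ppargc1b was 2.79 (adjusted p = 0.0444, up to 0.277 and lost without any library but IL4 replicate 2). F13a1, a coagulation factor gene of the list, lay below both controls without passing (-3.41, adjusted p = 0.365). Of 32 inflammatory genes 11 rose and none fell, but Cd40 alone had no overlap. Of 42 interferon response genes 5 rose and 1 fell, and in none of the 42 did the 6 stimulated libraries clear both controls on 1 side. Ifit1, an antiviral interferon-induced gene, showed the pattern, with 7.41 and 8.11 without stimulus, 4.12, 2.33 and 3.76 with IL4 and 13.64, 13.06 and 11.81 with LPS plus IFNg, which gave a pooled difference of 0.36 (adjusted p = 0.838). Fcgr1, the high-affinity IgG receptor, also lay below the controls with IL4 and above them with LPS plus IFNg (pooled -0.32, adjusted p = 0.837). The mannose receptor gene Mrc1 went the other way, 11.02 and 10.41 becoming 12.51, 11.65 and 12.06 with IL4 and 6.43, 6.63 and 6.17 with LPS plus IFNg. Its pooled fall passed (-1.47, adjusted p = 0.0482, up to 0.242) although the sides overlapped and although the call was lost without any 1 of the 8 libraries.

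To show promoter sequence of risers and fallers beside their values, the STAT6-type motif TTCNNNNGAA, which reads the same on both strands, was searched in the 250 bases before the start of each gene in RefSeq (GRCm38.p6). The expression table rests on mm9, and genes were joined by RefSeq gene identifier. Of 79 genes called higher with no overlap 62 had an entry, and 6 of these (9.68%) held TTCNNNNGAA, as did 7 of 106 (6.6%) of those called lower and 633 of 10759 (5.88%) of all genes tested. These shares were not tested against each other, and nothing is read from them. A match is a description of these letters and not a binding site. The windows of 3 risers and 2 fallers described in the text are printed on the gene's strand with the motif in capitals.
Hif1a, chr12:73907617-73907666, plus strand: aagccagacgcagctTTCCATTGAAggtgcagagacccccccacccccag
Pdcd1lg2, chr19:29410812-29410871, plus strand: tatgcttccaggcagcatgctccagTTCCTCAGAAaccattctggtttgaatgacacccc
Il1rn, chr2:24345145-24345204, plus strand: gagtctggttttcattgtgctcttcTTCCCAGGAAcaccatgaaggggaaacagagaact
Sepp1, chr15:3270526-3270585, plus strand: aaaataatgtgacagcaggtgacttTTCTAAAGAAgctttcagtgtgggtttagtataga
Cd5l, chr3:87357631-87357665, plus strand: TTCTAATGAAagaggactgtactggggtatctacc
Of these, Il1rn was at 6.76 and 7.81 without stimulus, at 7.93, 8.39 and 8.20 with IL4 and at 11.41, 11.38 and 11.39 with LPS plus IFNg. Neither Socs1 nor Cish was among the 6 risers with a match, and risers without an entry could not be searched.

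On the falling side stood receptors, opsonins and secreted proteins of resting macrophages. Complement C1q, made by macrophages, tags dying cells and immune complexes, and all 3 of its chain genes fell. C1qa was at 10.91 and 10.48 without stimulus, at 9.63, 9.85 and 9.13 with IL4 and at 9.32, 8.99 and 9.16 with LPS plus IFNg (-1.35, SE 0.23, adjusted p = 0.0381). C1qb fell by 1.03 (SE 0.16, adjusted p = 0.0301) and C1qc by 1.38 (SE 0.19, adjusted p = 0.0177), also with no overlap. Between the stimuli the differences were -0.38 (95% interval -0.93 to 0.16) for C1qa, -0.22 (-0.61 to 0.16) for C1qb and -0.15 (-0.58 to 0.29) for C1qc, and none of these passed. All 3 calls were lost when either control was left out, those of C1qa and C1qb also without IL4 replicate 1 or any LPS plus IFNg library, and that of C1qc without LPS plus IFNg replicate 2, with adjusted p up to 0.185. In bulk libraries fewer cells of a type and less RNA per cell cannot be told apart.

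Of 21 complement genes 4 fell and 1 rose, and 6 (28.6% beside 6.53% of all genes) lay below and 1 above both controls. The other faller was C5ar1, the receptor for the anaphylatoxin C5a, which was at 10.87 and 10.85 without stimulus. It was at 8.54, 7.94 and 7.83 with IL4 and at 8.43, 8.84 and 8.76 with LPS plus IFNg (-2.47, SE 0.23, adjusted p = 0.00736), and kept the call whichever library was left out. The riser was C3, the central complement protein, at 4.97 and 4.56 without stimulus, at 5.33, 5.41 and 5.57 with IL4 and at 9.63, 9.68 and 9.59 with LPS plus IFNg (2.77, adjusted p = 0.00729). Most of the change in C3 was with LPS plus IFNg, where it was 4.20 higher than with IL4 (adjusted p = 0.000144).

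Of 31 chemoattractant and purine receptors 3 fell and 1 rose, with a median of -0.87. Below both controls lay 9 (29.0% beside 6.53% of all genes) and above them 1 (3.23% beside 3.22%). Cx3cr1, the fractalkine receptor of resident macrophages and patrolling monocytes, was at 7.84 and 7.77 without stimulus, at 4.02, 5.09 and 4.80 with IL4 and at 5.93, 5.36 and 4.90 with LPS plus IFNg. No stimulated library came within 1.5 of a control, and the difference was -2.79 (SE 0.46, adjusted p = 0.0336). The call of Cx3cr1 was lost without either control, IL4 replicate 3 or any LPS plus IFNg library (up to 0.134). The third faller, Gpr34, a receptor for lysophosphatidylserine, was at 0 in all 6 stimulated libraries. Cxcr4, the CXCL12 receptor, was at 9.40 and 9.51 without stimulus and ranged from 0 to 6.29 when stimulated, and with that spread it did not pass (-5.18, adjusted p = 0.093). The riser, Fpr2, overlapped.

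**Figure D2:**
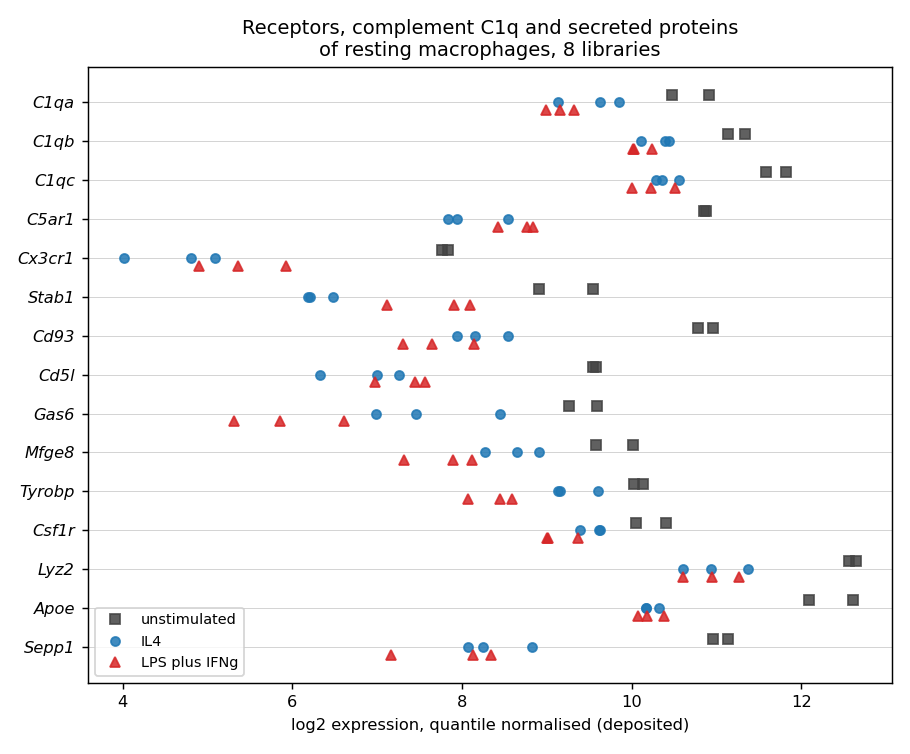
Deposited log2 expression in each library of 15 complement, receptor and secreted protein genes of resting macrophages. Squares are unstimulated, circles IL4 and triangles LPS plus IFNg libraries. The genes were picked among those with all 6 stimulated libraries below both controls, so both controls lie to the right in every row. Itgam, Emr1 and Mpeg1, in which the sides overlap, are not shown. The ranges of the 2 stimuli are apart for Stab1, Gas6, Mfge8, Tyrobp and Csf1r, and overlap for the other genes.

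Several genes for clearing dead cells fell. Of 19 efferocytosis and growth factor receptor genes 4 fell and none rose, with a median of -1.09. Below both controls lay 7 (36.8% beside 6.53% of all genes). Gas6, which bridges dying cells to the receptors Axl and Mertk, was at 9.59 and 9.26 without stimulus, at 7.46, 8.45 and 6.98 with IL4 and at 5.85, 5.31 and 6.61 with LPS plus IFNg (-2.65, SE 0.46, adjusted p = 0.0383). Mfge8, a bridge to integrins, fell by 1.60 (adjusted p = 0.0382) and Tyrobp, the adaptor DAP12 through which Trem2 signals, by 1.24 (adjusted p = 0.0357). The calls of these 3 genes were each lost without either control and without several stimulated libraries (up to 0.206). Cd300lb, the other faller, had overlapping libraries. Csf1r, the receptor for the growth factor the cells depend on, lay below both controls in all 6 libraries without passing (-0.89, adjusted p = 0.0618), as did Trem2 (-1.41, adjusted p = 0.0618) and Lrp1 (-1.09, adjusted p = 0.109).

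Of 22 macrophage identity genes 4 fell, none rose and 7 (31.8% beside 6.53% of all genes) lay below both controls, with a median of -0.74. Lyz2, lysozyme, was at 12.64 and 12.56 without stimulus, at 11.38, 10.61 and 10.94 with IL4 and at 10.61, 10.95 and 11.27 with LPS plus IFNg (-1.64, SE 0.26, adjusted p = 0.0297, up to 0.144). The near-identical Lyz1 can share its reads, and lay below both controls without passing (-1.86, adjusted p = 0.0703). Maf, a transcription factor of resident macrophages, fell mainly with IL4, from 12.76 and 12.45 to 10.22, 9.12 and 8.77, against 11.92, 12.05 and 12.03 with LPS plus IFNg (-1.92, adjusted p = 0.0459, up to 0.237). The calls of Lyz2 and Maf were both lost without either control and without several stimulated libraries. Of the markers used to check the cell type, Itgam was between 11.93 and 12.92 in the 8 libraries and Emr1, the gene of F4/80, between 10.18 and 11.46. Mpeg1 was at 11.79 and 12.05 without stimulus, at 9.56, 9.24 and 8.94 with IL4 and at 13.12, 12.12 and 12.17 with LPS plus IFNg. Cd68 lay below both controls in all 6 stimulated libraries, between 8.56 and 9.76 against 9.88 and 10.12.

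Apoe and 3 genes chosen after their values were seen, Sepp1, Cd5l and Hpgds, fell. Apoe, the apolipoprotein that carries cholesterol out of macrophages, was at 12.61 and 12.09 without stimulus. It was at 10.17, 10.33 and 10.17 with IL4 and at 10.38, 10.07 and 10.18 with LPS plus IFNg (-2.13, SE 0.19, adjusted p = 0.00729). The 6 stimulated values spanned under 0.4, with a difference between stimuli of -0.01 (95% interval -0.45 to 0.43, adjusted p = 1). Sepp1, a selenium transport protein, went from 11.13 and 10.96 to 8.83, 8.25 and 8.07 with IL4 and 7.16, 8.34 and 8.13 with LPS plus IFNg (-2.92, SE 0.35, adjusted p = 0.0116, up to 0.0795 without either control). Cd5l, a secreted scavenger protein made by macrophages, fell by 2.47 (adjusted p = 0.0116, up to 0.0728 without either control). Hpgds, which makes prostaglandin D2, fell by 2.40 (adjusted p = 0.0107, and 0.0653 without unstimulated replicate 2). Apoe kept its call whichever library was left out.

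Of 26 scavenger and Fc receptors 4 fell and 2 rose, and 5 (19.2% beside 6.53% of all genes) lay below and 1 (3.85% beside 3.22%) above both controls. No overlap was found for 2 of the fallers, Stab1 and Clec12a, and 1 of the risers, Fcgr2b. Stab1, a scavenger and clearance receptor, was at 9.55 and 8.91 without stimulus, at 6.21, 6.48 and 6.19 with IL4 and at 7.91, 7.12 and 8.10 with LPS plus IFNg (-2.23, SE 0.32, adjusted p = 0.0217, up to 0.111 without either control). The stimuli differed by 1.41 (adjusted p = 0.0273), IL4 being further from the controls. Clec12a, an inhibitory lectin, fell by 0.94 (adjusted p = 0.0369, lost without any 1 library, up to 0.108). Fcgr2b, the inhibitory IgG receptor, rose from 9.15 and 9.04 to 10.67, 10.54 and 10.88 with IL4 and only to 9.51, 9.26 and 9.23 with LPS plus IFNg (0.92, adjusted p = 0.0383, up to 0.133 and lost without any library but IL4 replicate 2). Cd93, a C-type lectin-like receptor outside the list, went from 10.96 and 10.78 to 8.54, 7.94 and 8.15 with IL4 and 8.14, 7.64 and 7.31 with LPS plus IFNg (-2.92, SE 0.26, adjusted p = 0.00736), and kept its call whichever library was left out. Cd14, the LPS coreceptor, overlapped: it was lower with IL4 and close to the controls with LPS plus IFNg (pooled -1.24, adjusted p = 0.194).

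Of 40 lysosomal genes 4 fell and none rose, with a median of -0.28. Below both controls lay 11 (27.5% beside 6.53% of all genes) and above them 1 (2.5% beside 3.22%). Hexa, a subunit of beta-hexosaminidase, was at 10.60 and 10.44 without stimulus, at 9.61, 9.69 and 9.61 with IL4 and at 8.75, 8.61 and 8.31 with LPS plus IFNg (-1.42, SE 0.17, adjusted p = 0.0111). The proteases Ctsd (-1.42, adjusted p = 0.0231), Ctsa (-0.96, adjusted p = 0.0393) and Lgmn (-1.54, adjusted p = 0.0422) were the others. Hexa alone of the 4 kept its call whichever library was left out; Lgmn lost it without any 1 of the 8 (up to 0.202), Ctsa without any library but IL4 replicate 2 (up to 0.147) and Ctsd without either control or LPS plus IFNg replicate 1 or 2 (up to 0.118). Ctsf lay below both controls without passing (-2.37, adjusted p = 0.415).

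Cell division genes had the lowest median of the lists, and their falls were not equal between stimuli. Of 42 cell cycle and mitosis genes 11 fell and none rose, 10 (23.8% beside 6.53% of all genes) lay below both controls, and the median was -2.13. Kif11, the motor that separates spindle poles, was at 9.03 and 9.12 without stimulus, at 7.91, 8.86 and 8.29 with IL4 and at 3.41, 3.64 and 3.53 with LPS plus IFNg (-3.14, SE 0.30, adjusted p = 0.00742). Ccna2, cyclin A, was at 7.72 and 7.74, then at 7.22, 7.12 and 6.97 with IL4 and at 0 in all 3 LPS plus IFNg libraries (adjusted p = 0.0116). In both genes the IL4 libraries lay just under the controls, and IL4 against no stimulus did not pass (adjusted p = 0.464 for Kif11 and 0.719 for Ccna2), while the direct contrast between stimuli passed (adjusted p = 0.000194 for Kif11 and 0.000293 for Ccna2). The LPS plus IFNg values of Ccna2 are equal, so leaving out 1 of them adds no spread and is no check of its call. Both genes kept their pooled calls whichever library was left out. Cdc20 (-3.02, adjusted p = 0.0348, up to 0.21), Birc5 (-2.26, adjusted p = 0.048, up to 0.215), Kif2c (adjusted p = 0.0301, up to 0.066) and Cenpf (-4.51, adjusted p = 0.0482, up to 0.24) lost theirs without either control and several stimulated libraries. IL4 against no stimulus did not pass for these 4 either, with adjusted p between 0.347 and 0.719. Of 34 DNA replication genes none passed and 3 (8.82% beside 6.53% of all genes) lay below both controls, among them Prim1 (adjusted p = 0.13), and Ccnf of the first list overlapped (-2.13, adjusted p = 0.7). Gadd45a, a stress gene that slows the cell cycle, fell alike with both stimuli, from 8.87 and 9.48 to between 5.81 and 7.25 (-2.80, adjusted p = 0.0348, lost without any library but IL4 replicate 1, up to 0.224).

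The 12 largest shared falls by the smaller of the 2 stimuli's differences, leaving out genes at 0 in all 6 stimulated libraries, were mostly genes with low values in the controls. Arhgap19 had high control values, at 8.90 and 8.77 without stimulus, at 4.67, 4.94 and 5.53 with IL4 and at 4.39, 5.91 and 5.81 with LPS plus IFNg (-3.62, SE 0.49, adjusted p = 0.0177, up to 0.102 without either control). Nptx1, a neuronal pentraxin, was at 10.39 and 10.61, then at 7.31, 8.76 and 6.64 with IL4 and at 0 in all 3 LPS plus IFNg libraries (adjusted p = 0.00729). Tlr2, a receptor for bacterial lipoproteins, was at 4.29 and 5.04 without stimulus, at 0 in 5 stimulated libraries and at 0.75 in the other (adjusted p = 0.00849). Nptx1 and Tlr2 kept their calls whichever library was left out. Their values at 0 add no spread, so leaving out a library at 0 is no check of these calls. The other 9 (Arap3, Klhl6, Plekhh2, Morc4, Tbx18, Bbs9, Slc39a8, Slco5a1 and Dkk2) were each at 0 in 3 to 5 of the stimulated libraries, and their calls were lost when single libraries were left out, with adjusted p up to 0.26. Of 26 Toll-like receptors and adaptors 1, Tlr2, fell and none rose. Below both controls lay 6 (23.1% beside 6.53% of all genes) and above them 1 (3.85% beside 3.22%). The last was Traf6 (1.40, adjusted p = 0.271).

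Genes listed at 0 in all 6 stimulated libraries and above 0 in both controls are set apart, because a value of 0 may stand for no counted read. There were 108, part of the 889, and 92 of them had a lower control value under 2, while 7 reached 3 and 1 reached 5. limma called 22 of them lower. The 8 with the highest lower control value were Nlrc3, Sncaip, Abhd15, E130306D19Rik, Galnt9, Gpr34, Tnfrsf13c and Kif9. Nlrc3, a cytosolic inhibitor of innate signalling, stood at 5.17 and 6.18 without stimulus, Gpr34 at 3.41 and 3.68, and Tnfrsf13c, the BAFF receptor, at 3.05 and 3.35. All 8 were called, with adjusted p between 0.00729 and 0.0109. Their 6 stimulated values are equal, so leaving out a stimulated library adds no spread and is no check of these calls. Depth is not recorded in the table, so no floor can be given for these zeros. More genes were above 0 in the controls, 11837 and 10888, than in any stimulated library, where 9967 to 10524 were (means 11362.5 and 10345.7, two-sided exact permutation p = 0.0714, the smallest that 28 arrangements allow). The part of this in the zeros was not tested.

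**Figure D3:**
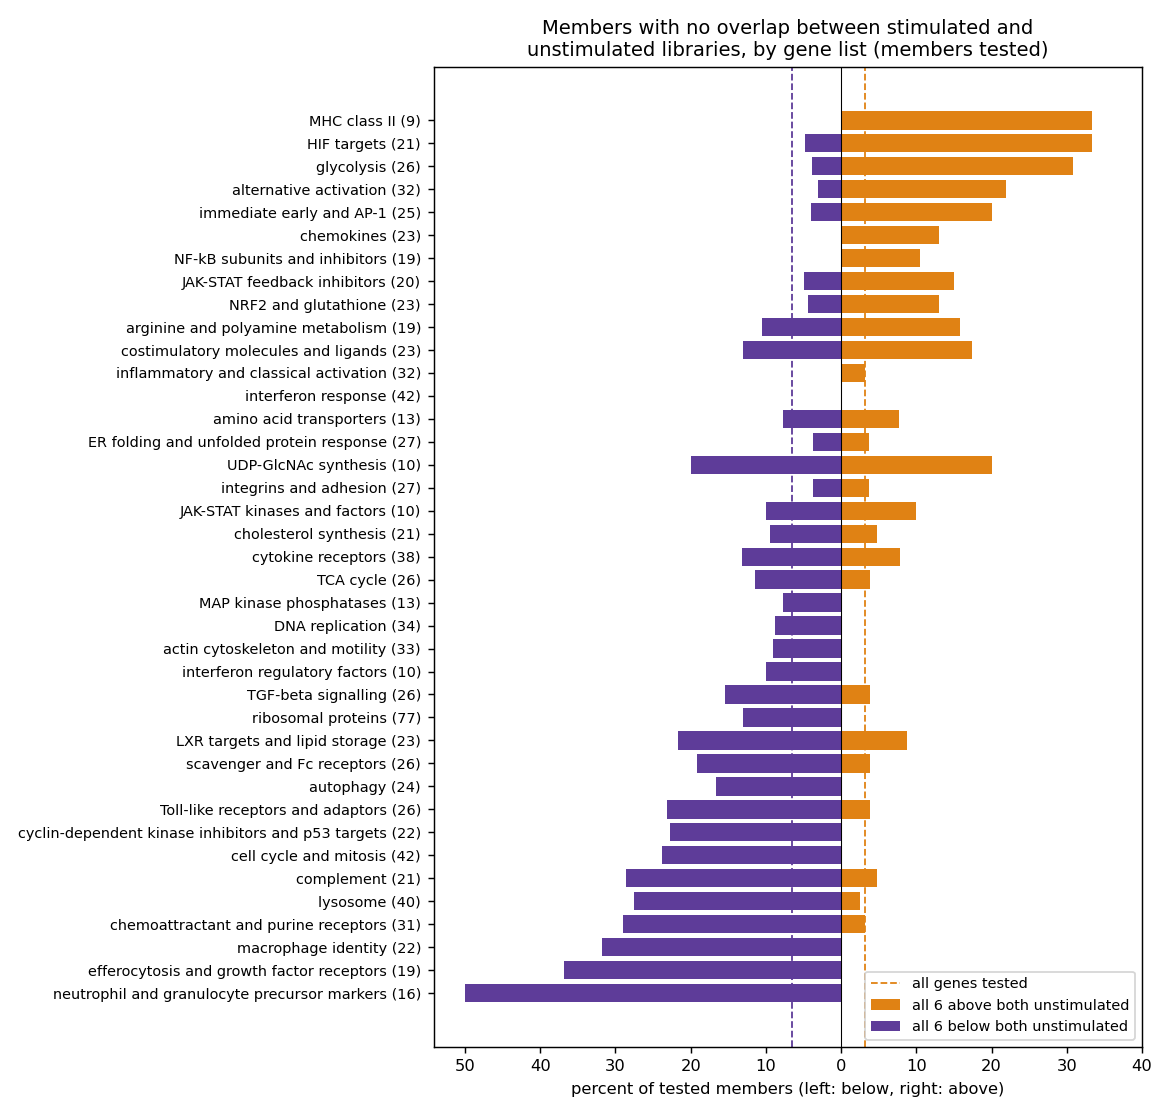
Share of tested members of each gene list drawn with all 6 stimulated libraries below (left, purple) or above (right, orange) both unstimulated libraries, in percent. The number of members tested is in brackets, and lists overlap in members. The housekeeping, dendritic cell, lymphocyte, mast cell, erythroid, stromal and osteoclast lists are not drawn. Dashed lines mark all genes tested, 6.53% below and 3.22% above. MHC class II, HIF and glycolysis genes reach over 30% above, and the bars to the left are longest for neutrophil precursor, efferocytosis and macrophage identity genes.

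How far the stimuli differed within the shared changes was read from the direct contrast of LPS plus IFNg with IL4, which called 1752 genes (12.9%). Leaving out genes at 0 on a whole side, 75 were called higher with no overlap. Of these 40 did not differ between stimuli by this test, 27 were higher still with LPS plus IFNg, and 8 higher still with IL4. Of the 117 called lower with no overlap 56 did not differ, 53 were lower still with LPS plus IFNg and 8 lower still with IL4. A gene that did not pass is not shown to be equal: among the largest shared changes the intervals were narrow for Slc7a2 and wide for Pla2g4a, where the difference was 1.69 (95% interval -0.47 to 3.85, adjusted p = 0.317). Zyx, a focal adhesion protein, is a gene that rose with both but more with IL4, from 6.08 and 6.23 to 8.59, 8.75 and 8.82, against 7.83, 7.77 and 7.53 with LPS plus IFNg (pooled 2.06, adjusted p = 0.00736; between stimuli -1.01, adjusted p = 0.0126). Clic4, an intracellular chloride channel protein, rose from 10.89 and 11.13 to between 12.22 and 13.24 (1.75, adjusted p = 0.0116, and 0.0565 without unstimulated replicate 1). For some called genes 1 stimulus alone did not pass against the controls. With IL4 these included C3, Cd40, Il1rn, Slamf8, Tgm2, Hif1a and Fabp4 (limma, adjusted p between 0.199 and 0.357). Of the largest shared rises, Pla2g4a, Plekhg1, P4ha2, Pcca and Slc2a6 did not pass with IL4 alone either (limma, adjusted p between 0.0667 and 0.12). Among the falls the same held for C1qa, C1qb, Gas6, Mfge8, Tyrobp, Oaz1, Lgmn, Hexa, Nptx1, Idh1, Suclg2 and S100a8 (between 0.0699 and 0.248). With LPS plus IFNg the genes that did not pass included Fcgr2b, Maf, Clec12a and Cish (adjusted p between 0.0552 and 0.554).

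**Figure D4:**
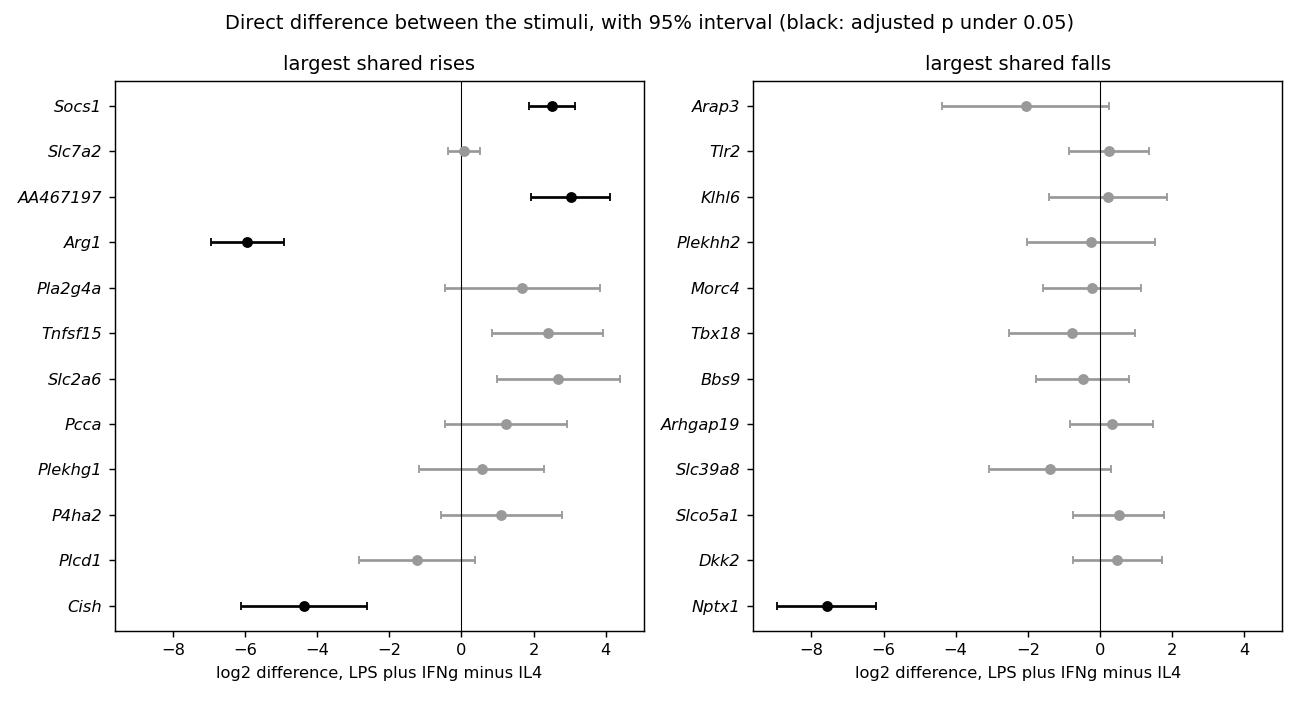
Difference of log2 expression between LPS plus IFNg and IL4 for the same 24 genes as in the plot of the largest shared changes, with 95% intervals from limma; black marks an adjusted p under 0.05 over all genes tested. Socs1 and AA467197 lie to the right (2.51 and 3.03), Arg1 and Cish to the left (-5.93 and -4.37), and the interval of Slc7a2 spans -0.36 to 0.52. For 9 fallers, Nptx1 among them, 1 stimulus is at 0 in all 3 libraries, so the size of their difference is not known.

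Markers of other cells that marrow cultures can hold moved with the groups in part, and stand here beside the falls. Of 16 neutrophil precursor markers 2 fell, none rose and 8 (50.0% beside 6.53% of all genes) lay below both controls, with a median of -1.54. Their summed level was 11.39 to 11.61 without stimulus, 10.54 to 11.03 with IL4 and 9.20 to 9.37 with LPS plus IFNg, and none was at 0 in all libraries. S100a8 was at 9.44 and 9.13, then at 8.38, 8.33 and 8.18 with IL4 and at 6.63, 5.89 and 6.30 with LPS plus IFNg (-2.0, adjusted p = 0.0116, and 0.0561 without unstimulated replicate 1), and S100a9 fell by 2.23 (adjusted p = 0.0383, up to 0.2). The 13 stromal markers summed to 11.86 to 12.15 without stimulus and 10.85 to 11.86 with one, and of these 1, Acta2, fell with overlapping libraries (-2.35, adjusted p = 0.0399), while Col1a1 lay below both controls without passing (-1.53, adjusted p = 0.137). Dendritic cell markers summed to 8.72 to 8.86 without stimulus, 10.17 to 10.71 with IL4 and 7.02 to 7.72 with LPS plus IFNg. None of the dendritic cell, lymphocyte, mast cell, erythroid or osteoclast markers passed. Cd3e, Ncr1, Epx, Hbb-b1, Calcr and Oscar were at 0 in all 8 libraries. The part of these markers in the falls of cell division and resting macrophage genes was not tested.

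The balance of rises and falls depends on the scaling, and the libraries had been pooled by their Actb level before sequencing. Setting the mean of 11 housekeeping genes equal adds 0.19 to every difference and setting the mean of 77 ribosomal protein genes equal adds 0.79, which moves the median over all genes from -0.04 to 0.16 and 0.75. As deposited, 33.0% of the genes with no overlap were higher; the share was 64.6% with housekeeping scaling (905 above, 6.65%, and 495 below, 3.64%) and 87.9% with ribosomal protein scaling (1457 above, 10.7%, and 201 below, 1.48%). Among the limma calls 42.9%, 67.7% and 94.3% were higher. Of the 79 genes called higher with no overlap 77 kept no overlap under both scalings, and of the 139 lower 82 did. Every fall named here as called was larger than 0.79, so none turned to a rise, but the 3 C1q genes, Lyz2, Maf, Mfge8, Stab1, Tyrobp, Ctsa, Ctsd, Lgmn, Clec12a, Oaz1 and 4632428N05Rik overlapped under ribosomal protein scaling, and Cenpf and S100a9 did under housekeeping scaling. Apoe, C5ar1, Cd93, Sepp1, Cx3cr1, Gas6 and Hexa kept no overlap under both. The medians of the macrophage identity, complement and lysosome lists turned to 0.05, 0.62 and 0.51 under ribosomal protein scaling (the complement median also to 0.03 under housekeeping scaling), while those of the cell cycle (-1.33), efferocytosis (-0.29) and chemoattractant receptor (-0.08) lists stayed below 0. Ribosomal protein genes are themselves no fixed point: 10 of 77 fell as deposited, none rose, and their mean was 10.39 to 10.65 in unstimulated and IL4 libraries and 8.93 to 9.11 with LPS plus IFNg.

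**Figure D5:**
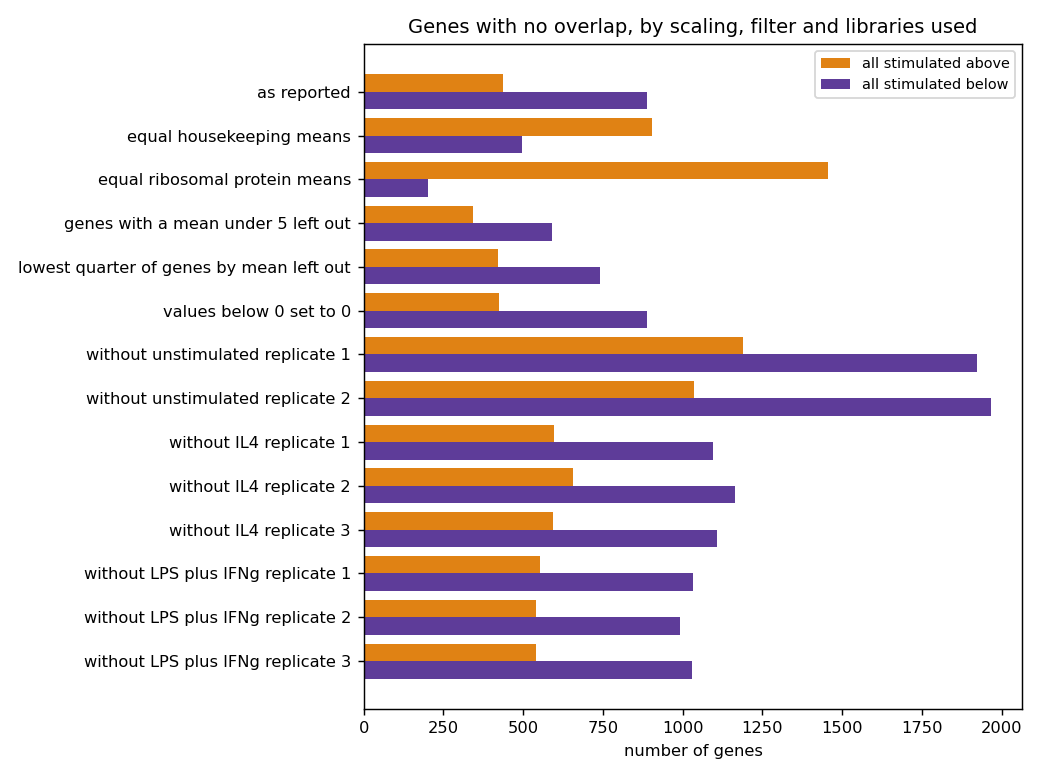
Number of genes with all stimulated libraries above (orange) or below (purple) all unstimulated libraries, as reported, under other scalings and filters, and with each library left out. Below outnumbers above except under housekeeping (905 above, 495 below) and ribosomal protein scaling (1457 above, 201 below), and leaving out a control raises both counts because fewer libraries must be cleared.

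Only part of the calls rested on all libraries evenly. Of 101 named genes past the threshold, 30 stayed past it whichever library was left out. When the 6 stimulated libraries were given 1 mean, so that differences between stimuli count as spread, 24 stayed past it. Those passing both ways and described above were Socs1, Slc7a2, Ccl2, Ccl7, Apoe, C5ar1, Cd93, Tlr2 and 4632428N05Rik. The 8 genes at 0 in all stimulated libraries are counted in the 30 and in the 24, but their stimulated values have no spread, so neither count checks them. Tlr2 was at 0 in most stimulated libraries, and Ccna2 and Nptx1 in every LPS plus IFNg library. Those values add no spread either, so these genes are checked only in part. Arg1, AA467197, Cd40, Il1rn, C3, Zyx, Gnpda1, Hexa, Kif11, Ccna2 and Nptx1, in which the stimuli differed, and Slamf9 and Tnfsf15, in which that difference did not pass, were called without any 1 library but not with 1 mean for the 6.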

How the data were processed

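The authors' deposited table, quantile normalised per its file name, gives log2 expression for 20259 RefSeq transcript rows in 8 columns. Per the submitters' processing notes TopHat and mm9 were used; its version, the counting tool and how zeros and multiply matching reads were handled are not given in the sources used. Per the labels' protocols libraries were made from 3' ends with barcoded primers, strand-specific, with PCR and without mention of molecular identifiers. Depth is unknown, so precision rests on the spread between libraries. The table holds 278 groups of rows with equal values (1421 rows), among them Rps27 and Gm9846, whose reads may not be separable.

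Of 20258 rows with a symbol, 6643 with 1 value in every library were left out and 13615 tested; columns were matched to samples by the labels. All 8 libraries entered 1 limma fit (version 3.58.1, R 4.3.3) with 1 mean per group and an intensity trend (5 residual and 2.308 prior degrees of freedom), two-sided, with Benjamini-Hochberg adjustment over all 13615 genes and a threshold of 0.05. Intervals are 95% limma intervals. Comparisons of either stimulus with no stimulus share the 2 controls. The list level is the log2 of the summed linear values of its members. The fit was tested on simulated data.

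The comparison, the 46 gene lists (2 list genes, Ly6g and Trbc1, unmatched) and the tests were chosen with earlier results of these data known. Named genes were the 12 highest and 12 lowest called with no overlap, by the smaller of the stimuli's differences; the 8 highest at 0 on a whole side; up to 4 called and 1 uncalled member of each list described (that of the complement list, and a second promoter motif searched, are not reported here); and a fixed set (Socs1, Slc7a2, Arg1, Cish, Il4ra, Cx3cr1, Cd14, Fcgr1, Mrc1, Hif1a, Hk2, Gfpt1, Ccna2). Cd93, Sepp1, Cd5l, Hpgds, Pim1, Zyx, Clic4, C3, Csf1r, Tgm2, Ppargc1b, Ldha, Pgk1, Slc2a1, Kif11, Tgfbr1, Tgfbr2, Sirpa, Slamf8, H2-Ab1 and Trem2 were chosen after their values were seen. Alternatives were no trend, 1 mean for the stimulated libraries, filters on low means, low values damped by a pseudocount of 1, values below 0 set to 0, a replicate block, array weights, 2 scalings, a threshold of 0.01, and leaving out each library. Genes named without values beside a count of 5 or fewer fall outside the rule and were chosen after their values were seen.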

Additional observations from a re-analysis of the deposited data

How the results depend on the processing

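As reported, limma called 123 genes higher and 164 lower, 438 and 889 genes lay above and below both controls, and 79 and 139 met both rules. With 1 mean for the 6 stimulated libraries 11 genes were called higher and 34 lower, and the same 11 and 34 counts had no overlap. Without the trend 92 were called lower with no overlap. Leaving out the lowest 0.25 of genes by mean gave 188 called higher, and leaving out means under 5 gave 251 called lower and 590 below both controls. With housekeeping scaling 61 were called lower, 905 lay above, 495 below, and 55 were called lower with no overlap. With ribosomal protein scaling 1108 were called higher and 67 lower, 1457 lay above and 201 below, and 575 and 61 met both rules. At an adjusted p of 0.01, 18 were called higher and 20 lower, 14 and 20 of them with no overlap. With the replicate number as a block 8 were called higher and 2 lower, 6 and 2 of them with no overlap; same-numbered libraries' deviations from their group means correlated between -0.0791 and 0.0718, so the numbers are not taken to pair libraries. Leaving out 1 library gave 49 to 139 called higher, 64 to 189 lower, 539 to 1188 above, 991 to 1967 below, and 36 to 120 and 57 to 188 meeting both rules. The no-overlap counts went past 1.5 times only without unstimulated replicate 1 (1188 above, 1924 below) or 2 (1036 and 1967). The call counts moved by over 1.5 times without IL4 replicate 1 or 3 or any LPS plus IFNg library, and those called higher with no overlap also without unstimulated replicate 2 (120); with 1 control left out the other is assumed to vary like the stimulated groups. Damped low values, values below 0 set to 0 and array weights left all 6 counts within 1.5 times. No difference of a named gene that was called changed sign in any setting. The 2 controls and the unknown depth limit most of what can be said of low genes: values at 0 have no known floor, and differences from 0 have no known size.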

Other observations

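Of 26 genes of the TCA cycle 2 fell and 1 rose. Below both controls lay 3 (11.5% beside 6.53% of all genes) and above them 1 (3.85% beside 3.22%). Idh1, the cytosolic isocitrate dehydrogenase, was at 11.36 and 11.42 without stimulus, at 10.61, 10.44 and 9.71 with IL4 and at 8.08, 8.50 and 8.78 with LPS plus IFNg (-2.04, SE 0.28, adjusted p = 0.0195, up to 0.131 without either control or LPS plus IFNg replicate 2). Suclg2, a subunit of succinyl-CoA ligase, fell by 2.02 (adjusted p = 0.0177, up to 0.0731 without either control). Both were lower with LPS plus IFNg than with IL4, by the direct contrast (adjusted p = 0.00675 and 0.00392). Of 23 NRF2 and glutathione genes 2 rose and none fell; Slc7a11, the cystine importer that supplies glutathione synthesis, went from 4.56 and 4.01 to 5.84, 6.64 and 7.31 with IL4 and 8.79, 9.58 and 9.83 with LPS plus IFNg (3.72, adjusted p = 0.0118, up to 0.0957 without either control). Of 23 genes of LXR targets and lipid storage 2 fell and 1 rose. Both controls were cleared above by 2 (8.7% beside 3.22% of all genes) and below by 5 (21.7% beside 6.53%). Besides Apoe the faller was Fabp4, a fatty acid carrier (-2.08, adjusted p = 0.0109, and 0.0577 without unstimulated replicate 2).

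Of 26 genes of TGF-beta signalling none passed. Below both controls lay 4 (15.4% beside 6.53% of all genes) and above them 1 (3.85% beside 3.22%). The receptor chain gene Tgfbr1 was at 8.89 and 8.02 without stimulus and between 5.98 and 7.15 in all 6 stimulated libraries (-2.0, adjusted p = 0.0585). Tgfbr2 was at 7.69 and 7.72, then between 6.14 and 6.86 (-1.21, adjusted p = 0.0913). For LPS plus IFNg against no stimulus alone Tgfbr1 passed (-1.95, adjusted p = 0.0418).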
